A study of Homo sapiens with 6 samples.

Results

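MYCN, DDX1 and NBAS are neighbouring genes on the short arm of human chromosome 2 that are often amplified together in neuroblastoma. They were chosen by gene symbol, with earlier results of these data known, and all 3 had a row among the 11351 genes of the deposited table. RNA was measured in IMR32, an established human neuroblastoma cell line known for its amplified MYCN gene, after 24 h with the solvent DMSO (3 libraries) or with 20 µM sAKZ692 (3 libraries), a small molecule known by its code name that the study's design text calls an activator of the transcription factor NRF2. The labels give the same culture for both groups and no other treatment. Values are TPM, transcript abundances corrected for transcript length and scaled to a common total per library, so levels can be set side by side between genes. The labels state a sequencing depth per library, but TPM keeps no read counts, so the depth that each library reached is unknown. The labels do not say whether replicates were separate cultures, so p-values measure the spread between these libraries, which may be technical. These are bulk samples, in which fewer cells of a type and less RNA per cell cannot be told apart.

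MYCN encodes a transcription factor of the MYC family that pairs with MAX on E-box sequences and drives growth, ribosome production and cell division. Extra copies of it mark a high-risk form of neuroblastoma. DDX1 encodes a DEAD-box RNA helicase that works with the ligase that rejoins tRNA after its intron is removed. NBAS encodes a subunit of a tether that captures vesicles travelling back from the Golgi to the endoplasmic reticulum, and it also takes part in nonsense-mediated mRNA decay. In tumours the stretch of DNA copied with MYCN often takes in both.

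The promoters are shown because the levels and changes of these 3 close neighbours are set against each other here. The 250 bases before each RefSeq gene start are printed 5′ to 3′ on the strand of the gene, from GRCh38.p14, with matches to a searched motif in capitals. The windows are chr2:15940300-15940549 (plus strand) for MYCN, chr2:15591618-15591867 (plus strand) for DDX1 and chr2:15561335-15561584 (minus strand) for NBAS, so NBAS and DDX1 are read away from each other.
MYCN: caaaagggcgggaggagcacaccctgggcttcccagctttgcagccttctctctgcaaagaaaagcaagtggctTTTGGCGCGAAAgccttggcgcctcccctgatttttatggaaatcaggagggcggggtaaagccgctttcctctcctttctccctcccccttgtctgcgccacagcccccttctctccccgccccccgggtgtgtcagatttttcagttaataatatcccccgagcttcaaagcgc
DDX1: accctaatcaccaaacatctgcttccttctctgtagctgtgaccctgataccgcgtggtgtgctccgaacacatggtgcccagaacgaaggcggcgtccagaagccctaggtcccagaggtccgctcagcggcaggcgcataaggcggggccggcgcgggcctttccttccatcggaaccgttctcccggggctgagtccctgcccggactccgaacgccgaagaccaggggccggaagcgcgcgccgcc
NBAS: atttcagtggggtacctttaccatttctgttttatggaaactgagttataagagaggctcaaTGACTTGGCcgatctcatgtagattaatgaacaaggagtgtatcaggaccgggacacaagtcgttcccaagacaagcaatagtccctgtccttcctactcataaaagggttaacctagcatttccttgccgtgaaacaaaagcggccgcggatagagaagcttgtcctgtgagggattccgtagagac
The motifs were searched on both strands. They were the E-box CACGTG, the core of the antioxidant response element that NRF2 binds, TGACNNNGC, and the E2F sites TTTCGCGC and TTTGGCGC. The MYCN window held both E2F forms, TTTGGCGC at -176 to -169 from the gene start and TTTCGCGC on the other strand at -172 to -165, and these matches overlap. An E2F form was in 0.969% of 35097 promoter windows of the same length. The NBAS window held 1 antioxidant response element core at -188 to -180, a motif found in 10.9% of windows. The DDX1 window held no match to any of them, and the E-box, found in 6.34% of windows, was in none of the 3. A match describes letters only and shows no binding.

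Facts of the whole comparison bear on how the members read. Limma was run on log2(TPM + 1) of the 9137 genes averaging 1 TPM or more, and the 3 members passed this filter. Of these genes 32.6% passed the threshold, an adjusted p under 0.05. NQO1, a classical NRF2 target, rose from 15.7 ± 0.303 to 65.9 ± 16.9 TPM (SD, n = 3; adjusted p = 0.00051). Over all tested genes the log2 fold change had a median of 0.14, against which the members can be read. It moved to -0.03 with median-ratio scaling, in which a library's size is its median ratio to the geometric means of the genes, and also with quantile normalization. The share of higher genes among those past the threshold was 73.9% as deposited, 41.4% with median-ratio scaling and 47.5% with quantile normalization. Replicate 3 of sAKZ692 stood apart. Its correlation with the other treated libraries was 0.971 and 0.972 across genes, which are not independent replicates, while those reached 0.992 with each other. The listed genes made up 65.9% of its TPM scale, against 61.2% to 61.9% in the others. Of 13 noradrenergic markers 8 had rows. These summed to between 1506 and 1584 TPM with DMSO and between 1773 and 1848 TPM with sAKZ692. Of 16 mesenchymal and stromal markers 6 had rows. Their sum was between 931 and 971 TPM with DMSO and between 772 and 1611 TPM with sAKZ692, where VIM reached 1334 TPM in replicate 3. The part of these shifts in the results below was not tested.

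DDX1 was the most abundant transcript in the table in all DMSO libraries and fell with sAKZ692. It was at 7714, 7907 and 7586 TPM in DMSO replicates 1, 2 and 3, and at 6414, 6528 and 5978 TPM in the sAKZ692 replicates. Every treated library was below every DMSO library, and replicate 3 was the lowest. The mean dropped from 7736 ± 162 to 6307 ± 290 TPM (SD, n = 3), a change of -18.5%. The log2 fold change was -0.30 with a standard error of 0.08 and a 95% interval from -0.48 to -0.11 (limma adjusted p = 0.0244). Across the comparison 8.50% of tested genes were lower at this threshold, and in 14.6% the treated libraries all lay below the DMSO libraries. By log2 fold change DDX1 took place 939 from the lowest of the 9137 tested genes. By the change in mean TPM it took place 2 of all listed genes, at -1429 TPM, behind TUBA1B, an alpha-tubulin gene named after its value was seen, at -1717 TPM.

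The DDX1 call depended on the libraries used. Leaving out any single library other than sAKZ692 replicate 3 ended it (adjusted p between 0.0515 and 0.0994), and without that replicate the fold change was -0.26 (adjusted p = 0.00048). Without the filter on low values the adjusted p was 0.0953, and after quantile normalization the fold change was -0.11 (adjusted p = 0.442), a method that gives the top-ranked gene of each library the same value.

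MYCN itself showed no difference past the threshold. It was at 1390, 1430 and 1347 TPM with DMSO and at 1382, 1376 and 1539 TPM with sAKZ692. The groups overlapped, since the first 2 treated libraries lay inside the DMSO range and replicate 3 above it. The means were 1389 ± 41.9 and 1432 ± 92.4 TPM (SD, n = 3). The log2 fold change was 0.04 with a 95% interval from -0.13 to 0.21 (limma adjusted p = 0.683). MYCNOS, a gene antisense to MYCN, was not analysed here, and strand use in counting is not given in the sources used here, so reads of both cannot be told apart. The sign was not fixed. It was -0.14 after median-ratio scaling and -0.0099 without replicate 3 of sAKZ692, neither past the threshold (adjusted p = 0.187 and 0.855).

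NBAS lay slightly higher in the treated libraries without passing the threshold. It was at 827, 893 and 883 TPM with DMSO and at 901, 904 and 1097 TPM with sAKZ692. The groups did not overlap, although replicates 1 and 2 exceeded the highest DMSO library by little, and in 35.9% of tested genes all treated libraries were likewise the higher ones. The means were 868 ± 35.9 and 967 ± 112 TPM (SD, n = 3), and the log2 fold change was 0.15 with a 95% interval from -0.07 to 0.37 (limma adjusted p = 0.244). Without replicate 3 it was 0.06 (adjusted p = 0.318), and after median-ratio scaling it was -0.034 (adjusted p = 0.811).

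**Figure D1:**
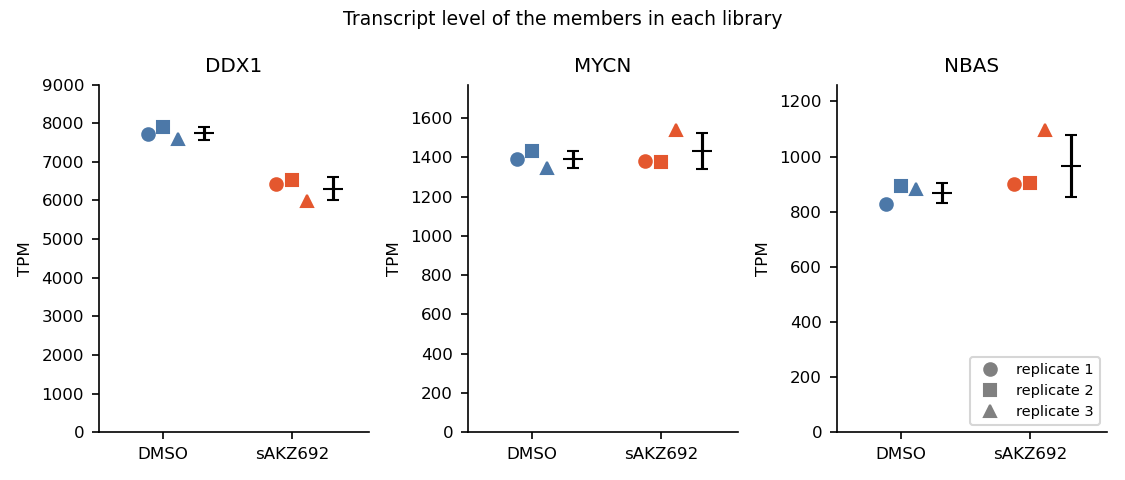
TPM of DDX1, MYCN and NBAS in each library, with replicates as marker shapes and the mean ± SD of each group (n = 3) as a black bar, all axes from 0. The treated DDX1 libraries, at 5978 to 6528 TPM, lie below the DMSO libraries, while those of MYCN overlap with DMSO and those of NBAS lie just above it.

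**Figure D2:**
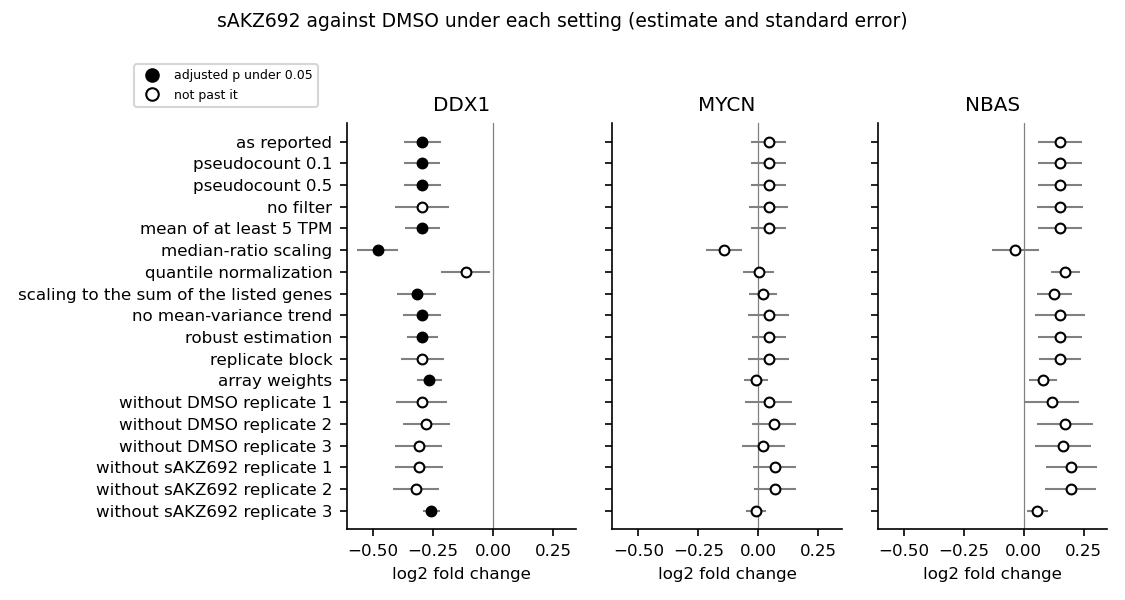
The log2 fold change of each member, with its standard error, as reported and under each alternative, filled where the adjusted p was under 0.05. DDX1 stays below 0 throughout, from -0.48 to -0.11, and MYCN and NBAS are never past the threshold. The -0.11 is from quantile normalization, which gives the top-ranked gene of each library the same value.

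The order of the members was the same in every library, with DDX1 highest, MYCN next and NBAS lowest, and no pair overlapped. MYCN ranked between 59 and 72 and NBAS between 92 and 109 among the listed genes. DDX1 ranked 1 in 5 libraries and 3 in replicate 3 of sAKZ692, where GAPDH was at 7653 TPM and the ribosomal protein gene RPS2 at 6877 TPM. The 3 genes together made up between 1.59% and 1.65% of the listed TPM with DMSO and between 1.31% and 1.44% with sAKZ692, and DDX1 alone between 1.23% and 1.28% and between 0.907% and 1.06%.

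A ratio of 2 genes within a library does not depend on how that library is scaled, and the ratios that involve DDX1 did not overlap between the groups. Both share DDX1, and how often ratios of other gene pairs do the same was not computed. For single tested genes, all treated libraries lay above DMSO in 35.9% and below it in 14.6%. The level of DDX1 was 5.55, 5.53 and 5.63 times that of MYCN in the DMSO libraries, and 4.64, 4.74 and 3.88 times in the sAKZ692 libraries. These ranges do not overlap. On the log2 scale the SD of the ratios was 0.0144 with DMSO and wider, 0.158, with sAKZ692 (n = 3 each). The log2 ratio of MYCN to DDX1 was higher by 0.34 with sAKZ692 (two-sided exact permutation p = 0.10, the smallest that 3 against 3 can give, and 0.15 adjusted over the 3 ratios). The level of DDX1 was 9.33, 8.85 and 8.59 times that of NBAS with DMSO and 7.12, 7.22 and 5.45 times with sAKZ692, again without overlap, a log2 difference of -0.45 (exact permutation p = 0.10, adjusted 0.15). The level of MYCN was 1.68, 1.6 and 1.52 times that of NBAS with DMSO and 1.53, 1.52 and 1.40 times with sAKZ692. These ranges overlap, with a log2 difference of -0.11 (exact permutation p = 0.20, also 0.20 adjusted). Leaving out replicate 3 of sAKZ692 gave 0.25, -0.32 and -0.068 for the 3 differences in the same order.

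**Figure D3:**
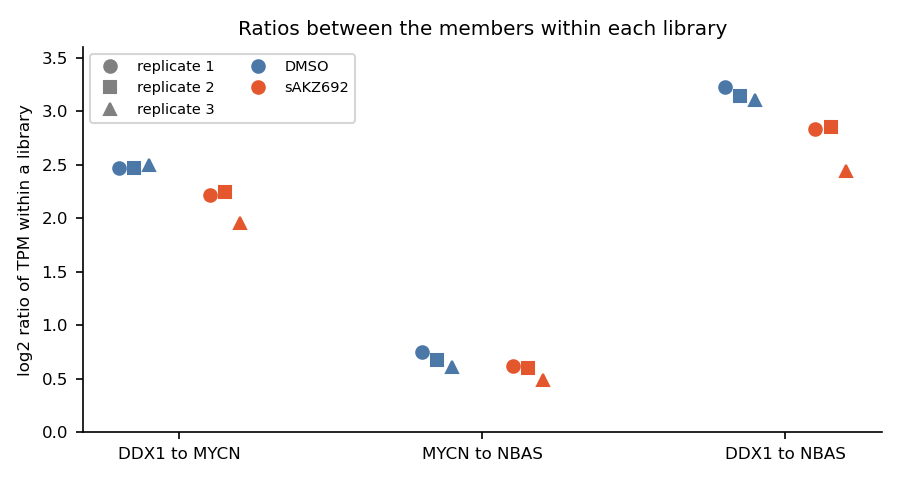
Log2 ratios of TPM between pairs of members within each library, with group by colour and replicate by marker. The treated libraries lie below the DMSO libraries for DDX1 to MYCN and DDX1 to NBAS, and overlap with them for MYCN to NBAS.

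Along the chromosome, levels dropped sharply beyond FAM84A on the NBAS side of the members and beyond MYCN on the other. Of the 20 protein-coding genes on each side of MYCN in RefSeq, 23 of 40 had rows, DDX1 and NBAS among them. FAM84A, listed in RefSeq as LRATD1 and next to NBAS on its far side, was at 1169 ± 50.9 TPM with DMSO (SD, n = 3), between the levels of MYCN and NBAS. The gene beyond it with a row, TRIB2, which encodes a pseudokinase, was at 58.5 TPM, 20.0 times lower than FAM84A. On the other side the nearest gene, FAM49A (CYRIA in RefSeq), whose product restrains RAC1 signalling to actin, was at 1.80 TPM, 773 times lower than MYCN. The 20 neighbours with rows other than the members and FAM84A had a median of 24.2 TPM and a range from 0.0900 to 224 TPM, and the highest was LAPTM4A, a lysosomal membrane protein gene. The median of all listed genes was 11.3 TPM, and 93 genes exceeded 1000 TPM. These are RNA levels, and copy number was not measured here.

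With sAKZ692, FAM84A and FAM49A, the listed neighbours on either side of the members, were both higher. FAM84A was at 1177, 1215 and 1114 TPM with DMSO and at 2219, 2036 and 1265 TPM with sAKZ692. All treated libraries lay above DMSO, but replicate 3 by little, and in replicates 1 and 2 FAM84A overtook MYCN. Its log2 fold change was 0.61 (limma adjusted p = 0.0459). Leaving out any single library other than sAKZ692 replicate 3 ended that call (adjusted p between 0.107 and 0.141), and leaving out that one gave a fold change of 0.86. It was also lost after median-ratio scaling (0.133), quantile normalization (0.115), scaling to the listed sum (0.0732), no trend (0.0648) or no filter (0.0619). FAM49A rose from 1.80, 1.80 and 1.79 TPM to 5.66, 5.33 and 3.21 TPM, a log2 fold change of 1.01 (adjusted p = 0.00783) lost only under quantile normalization (0.0534) among the alternatives run.

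Among the 21 neighbours with rows other than the members, 19 were tested. Of these 9 were higher, where 24.1% of all tested genes were. Another 2 were lower, a share near the 8.50% of all tested genes, and 8 did not pass. Beside FAM84A and FAM49A, HPCAL1, a neuronal calcium sensor gene, rose from 24.9 ± 1.12 to 40.4 ± 4.26 TPM, and KCNS3, a potassium channel subunit gene, from 4.09 ± 0.305 to 7.40 ± 1.32 TPM (SD, n = 3). HS1BP3, GREB1, LAPTM4A, KCNF1 and LPIN1, the last a phosphatidate phosphatase gene, were the other higher genes, with log2 fold changes between 0.38 and 0.78. GEN1, which cuts recombination intermediates of DNA, fell from 18.6 ± 0.770 to 13.1 ± 1.18 TPM, and NOL10, a nucleolar protein gene, from 62.0 ± 2.13 to 49.7 ± 1.79 TPM. Of these 11 calls, those of HPCAL1 and HS1BP3 held under every alternative run. A log2 fold change below 0 was found in 4 of the 19 and in 34.1% of all tested genes. The median log2 fold change of the 19 was 0.46, against 0.14 for all tested genes, and 0.27 after median-ratio scaling. After that scaling 5 were higher and 2 lower, after quantile normalization 4 and 2. When a DMSO library was left out, 4 or 5 passed as higher and 0 to 2 as lower, and 13 and 2 did when sAKZ692 replicate 3 was. E2F6, TRIB2, VSNL1, RDH14, WDR35, SDC1, PUM2 and RHOB did not pass, and C2orf50 and MATN3, under 1 TPM, were not tested.

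**Figure D4:**
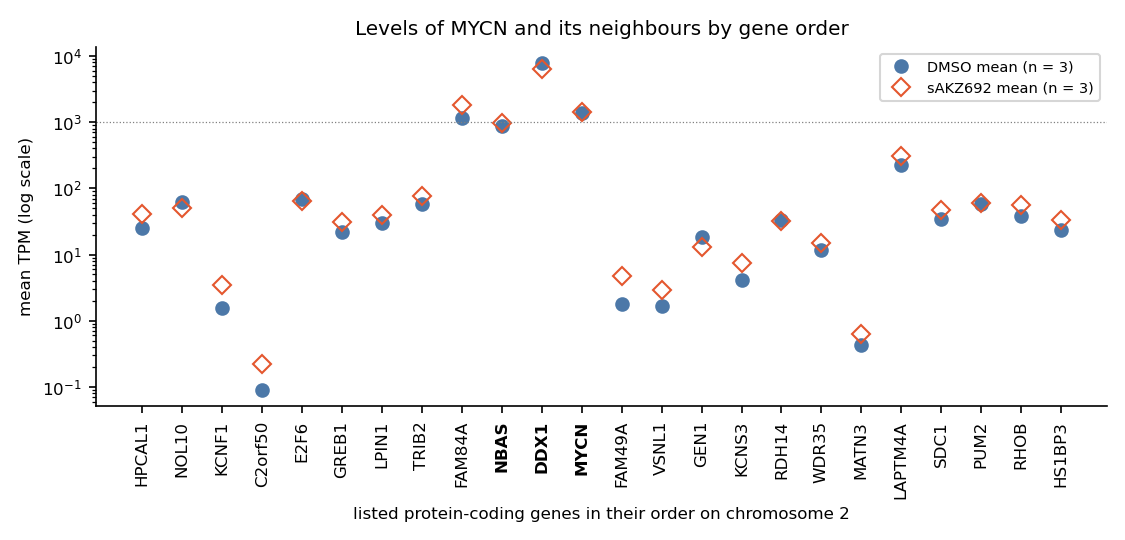
Mean TPM (log axis, n = 3 per group) of MYCN and its listed protein-coding neighbours in their order on chromosome 2, with the members in bold and a dotted line at 1000 TPM. FAM84A, NBAS, DDX1 and MYCN stand above the genes on both sides, and FAM49A next to MYCN is at 1.80 TPM with DMSO.

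Of the other MYC family genes, both MYCL and MYC were at low levels. MYC was at 0.656, 0.705 and 0.604 TPM with DMSO and at 1.61, 1.75 and 0.589 TPM with sAKZ692, with a mean under the filter, so it was not tested. MYCL was at 3.92 ± 0.482 and 3.99 ± 1.5 TPM (SD, n = 3; limma adjusted p = 0.941). MAX, the partner of MYCN, was not analysed here. Of 9 tested genes of the MYC network of E-box factors, 2 rose and 0 fell (also 2 and 0 at an unadjusted p under 0.05), a share near the 24.1% of all tested genes that were higher. Both that rose are known as MAX partners. MXD4 rose from 32.9 ± 2.83 to 76.1 ± 15.8 TPM (adjusted p = 0.00168). MXI1 rose from 31.8 ± 3.55 to 49.3 ± 11.5 TPM (adjusted p = 0.0265), a call lost after median-ratio scaling (0.0839) or quantile normalization (0.0599) and without DMSO replicate 2 or 3 (0.0945 and 0.0972). The list's median log2 fold change was 0.16 against 0.14 for all genes, and -0.022 after median-ratio scaling.

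Among 6 tested genes that act on the stability of MYCN protein, CCNB1, the cyclin B1 gene, had a log2 fold change of -0.71 (limma adjusted p = 0.0255) and HUWE1, a ubiquitin ligase gene, one of 0.29 (0.0470), and 4 did not pass. That share is near the 32.6% of all tested genes past the threshold in either direction. CCNB1 was at 255, 258 and 253 TPM with DMSO and at 130, 132 and 220 TPM with sAKZ692, so replicate 3 lay nearest to DMSO. Only without that replicate did the CCNB1 call survive leaving out a library (otherwise up to 0.0835). The HUWE1 call was lost under most alternatives (up to 0.375). The list median was 0.09, and -0.088 after median-ratio scaling.

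Among genes known to be activated by MYC or MYCN, more fell than rose with sAKZ692, while MYCN RNA overlapped between the groups. Of 36 listed genes 25 had rows and 24 were tested, of which 12 fell, 3 rose and 9 did not pass (20 of the 24 had a log2 fold change below 0, as had 34.1% of all tested genes), where 8.50% of all tested genes were lower and 24.1% higher. MCM7, which helps unwind DNA at replication forks, fell from 594 ± 9.11 to 301 ± 31.0 TPM (limma adjusted p = 0.00053), CAD, which starts pyrimidine synthesis, from 163 ± 3.87 to 116 ± 2.77 TPM (0.00168), and NME1, a nucleoside diphosphate kinase gene, from 1018 ± 67.2 to 709 ± 56.6 TPM (0.00432). The 3 that rose serve amino acid and one-carbon supply and are also known targets of ATF4, whose part here was not tested. These are SHMT2, from 239 ± 1.62 to 368 ± 43.5 TPM (adjusted p = 0.00281), and, named after their values were seen, MTHFD2 and SLC7A5, with log2 fold changes of 0.39 and 0.71. The SLC7A5 call was lost after median-ratio scaling (0.0542) and when any single library other than sAKZ692 replicate 3 was left out (up to 0.0841). The list's median log2 fold change was -0.27, and between -0.44 and -0.27 over the scalings tried. Leaving out a DMSO library left 6 or 7 lower and 2 higher, and leaving out sAKZ692 replicate 3 gave 18 lower and 4 higher. The activated list includes E2F1, named after its value was seen. Whether its product binds the E2F motif printed in capitals for MYCN was not tested. E2F1 was at 156, 146 and 155 TPM with DMSO and at 104, 108 and 53.6 TPM with sAKZ692 (log2 fold change -0.84, limma adjusted p = 0.0337). That call was lost without any 1 DMSO library (up to 0.107) and after quantile normalization (0.0632).

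Of 9 tested genes known to be repressed by MYC or MYCN, 5 rose, 0 fell (1 at an unadjusted p under 0.05 in limma) and 4 did not pass, where 24.1% of all tested genes were higher and 8.50% lower. NDRG2 rose from 15.7 ± 0.226 to 33.3 ± 4.46 TPM (limma adjusted p = 0.00094), NDRG1 from 3.38 ± 0.349 to 8.04 ± 1.31 TPM (0.00243) and CDKN1C, an inhibitor of cyclin-dependent kinases, from 10.5 ± 0.964 to 29.7 ± 13.0 TPM (0.00740). CLU, the clusterin gene, averaged 27.4 ± 5.49 TPM with DMSO and reached 67.5, 77.4 and 237 TPM with sAKZ692 (0.0134), and that call was lost without DMSO replicate 1 or 3 (0.0540 and 0.0561). The 1 tested member with a log2 fold change below 0 was CDKN1A, named after its value was seen. It averaged 53.7 TPM with DMSO and 45.0 TPM with sAKZ692 (log2 fold change -0.26, limma adjusted p = 0.0798), with all treated libraries below DMSO. The list's median was 0.64, and between 0.35 and 0.64 over the scalings tried. Leaving out a DMSO library left 3 or 4 higher and 0 lower, and leaving out sAKZ692 replicate 3 gave 6 and 1. Under each of the 3 scalings 1 member was lower.

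No tested partner of DDX1 in its complex passed the threshold. Of 9 names listed for the tRNA ligase complex, which include older symbols, 5 had rows, and RTCB, the ligase itself, was not analysed here. In limma 0 of the 5 were higher and 0 lower, where 24.1% and 8.50% of all tested genes were. An unadjusted p under 0.05 was found for 0 of them. With 5 genes these counts cannot show whether the complex differs from all tested genes. FAM98A, a subunit, was at 67.6 ± 3.21 and 65.7 ± 5.36 TPM, and ZBTB8OS, the Archease cofactor, at 31.3 ± 1.93 and 30.1 ± 1.77 TPM (DMSO first; SD, n = 3). The log2 fold changes of the 5 ran from -0.054 to 0.17 with a median of -0.012, and -0.19 after median-ratio scaling, where 0 passed as well.

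Of 20 other DEAD-box helicases tested, 4 fell, 0 rose (7 and 0 at an unadjusted p under 0.05 in limma) and 16 did not pass, where 8.50% of all tested genes were lower and 24.1% higher. A log2 fold change below 0 was found in 18 of the 20 and in 34.1% of all tested genes. EIF4A3, the helicase of the exon junction complex, fell from 226 ± 1.71 to 151 ± 5.50 TPM (SD, n = 3; adjusted p = 0.00096), a call held under every alternative run. DDX39A, an mRNA export helicase gene, had a log2 fold change of -0.40, DDX18, which serves ribosome assembly, one of -0.27, and DDX24 one of -0.23 (adjusted p = 0.023, 0.0263 and 0.0296). Each of these calls was lost without 1 or more single libraries (up to 0.0909, 0.112 and 0.112). The DDX24 call was also lost after quantile normalization (0.0829), without the trend (0.0654) and with replicate numbers as a block (0.0725). With that block the DDX18 call was lost too (0.0528). EIF4A1, the helicase of the cap-binding complex in translation initiation, was the nearest in level, at 1990 TPM with DMSO, 3.89 times lower than DDX1. Its groups overlapped (log2 fold change -0.23, adjusted p = 0.151). The list's median was -0.20, and between -0.38 and -0.20 over the scalings tried. Lower members numbered 12 after median-ratio scaling, 6 after quantile normalization or scaling to the listed sum, 2 with replicate numbers as a block, 12 without replicate 3 of sAKZ692, and 1 or 2 without any other single library.

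Of the 7 tested genes of the NRZ tether, to which NBAS belongs, and the syntaxin 18 complex it serves, 1 rose, 1 fell and 5 did not pass, a share near the 32.6% of all tested genes past the threshold. SEC22B, a SNARE of traffic between endoplasmic reticulum and Golgi, rose from 17.0 ± 0.383 to 22.1 ± 0.652 TPM (SD, n = 3; limma adjusted p = 0.0128), a call lost after median-ratio scaling (0.108) or quantile normalization (0.118) and without DMSO replicate 1 or 2 (0.0595 and 0.0523). ZW10, a subunit of the tether that also acts at kinetochores, fell from 24.9 ± 0.378 to 19.7 ± 0.866 TPM (0.018), a call lost without any 1 DMSO library (up to 0.0754) or sAKZ692 replicate 1 (0.0536). RINT1, the remaining tether subunit, was at 20.8 ± 0.123 and 16.9 ± 2.78 TPM, DMSO first. Its treated libraries all lay below DMSO, but it did not pass (0.093). The list's median log2 fold change was 0.052, and -0.13 after median-ratio scaling.

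Of 11 tested factors of nonsense-mediated decay, 2 fell and 0 rose (4 and 0 at an unadjusted p under 0.05 in limma), where 8.50% of all tested genes were lower and 24.1% higher. Both, EIF4A3 and MAGOH, belong to the exon junction complex that marks spliced mRNA. MAGOH fell from 267 ± 19.0 to 205 ± 15 TPM (SD, n = 3; adjusted p = 0.0131), a call lost without DMSO replicate 2 or 3 (0.0596 and 0.0601). The median of the 11 was -0.13, and -0.31 after median-ratio scaling, where 5 were lower. Without replicate 3 of sAKZ692 5 were lower, and without DMSO replicate 2 or 3 1 was.

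**Figure D5:**
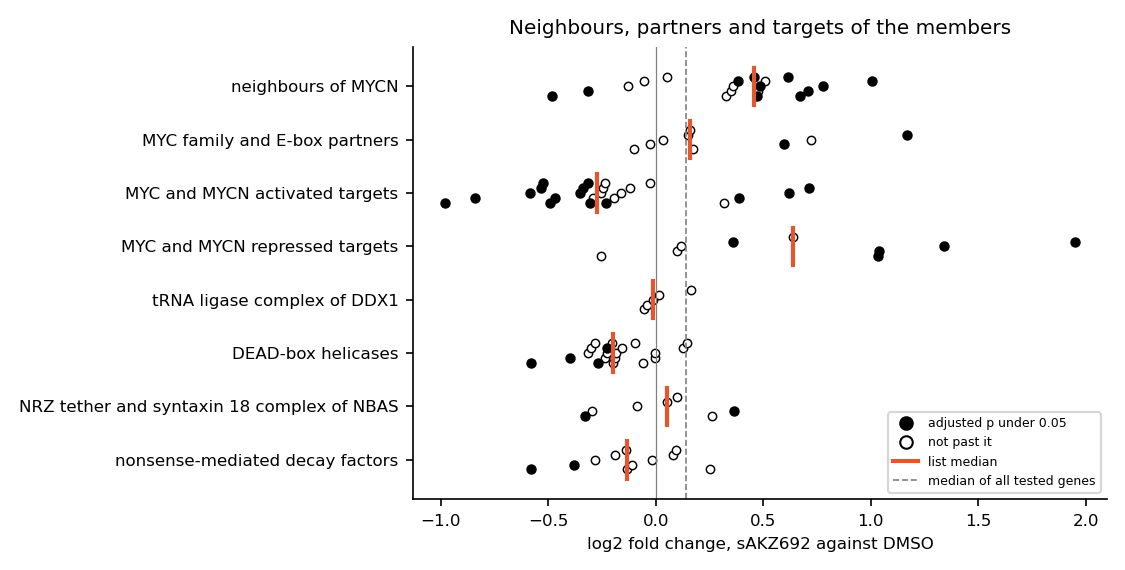
Log2 fold change of each tested gene in the lists around MYCN, DDX1 and NBAS, filled where the adjusted p was under 0.05, with list medians in orange and the median of all tested genes (0.14) dashed. Activated targets centre at -0.27 and repressed targets at 0.64, while the tRNA ligase partners lie within -0.054 to 0.17.

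Of 8 tested genes linked to amplified MYCN in neuroblastoma, 7 for transcription factors and 1 for the receptor tyrosine kinase ALK, 1 was higher and 0 lower (2 and 0 at an unadjusted p under 0.05 in limma), where 24.1% of all tested genes were higher and 8.50% lower. TBX2, a transcription factor gene, was at 82.4, 86.0 and 78.5 TPM with DMSO and at 159, 154 and 88.5 TPM with sAKZ692, again with replicate 3 nearest to DMSO (log2 fold change 0.65, adjusted p = 0.0477). Leaving out any single library other than replicate 3 ended that call (up to 0.143), as did each of the 3 scalings (up to 0.127), fitting without the trend and testing without the filter. The 8 had a median of 0.11, and -0.072 after median-ratio scaling. Of the noradrenergic markers 1 of 8 tested rose, CHGB, a granin of secretory granules, from 26.3 ± 0.977 to 54.7 ± 8.21 TPM (SD, n = 3; adjusted p = 0.0011), and 3 did without replicate 3. Of the mesenchymal markers 0 of 4 tested passed in limma (1 higher and 0 lower at an unadjusted p under 0.05), though without replicate 3 2 were lower.

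The members' profiles over the 6 libraries were set against those of all other tested genes, as distances between log2(TPM + 1) profiles centred on their own means. This is a description, and small distances also arise among genes that vary little. Nearest to MYCN were ELOF1, ZNF449, UBA1, AASDHPPT and POLR3F, at distances from 0.0461 to 0.0595. Among those nearest to DDX1 were EIF4EBP2, THAP11, PSME3 and ELP6, from 0.0625 to 0.0654, and nearest to NBAS were MYL12A, ZMPSTE24, SLC35B2, TBC1D20 and PTMS, from 0.0665 to 0.0815. Among the members, MYCN and NBAS lay closest, at 0.194, with NBAS in place 532 of 9136 genes from MYCN. DDX1 lay at 0.471 from MYCN and 0.641 from NBAS, in places 4068 and 5619.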

How the data were processed

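Per the labels' protocols, total RNA of IMR32 cells was sequenced as single-end reads of 50 bases. Per the submitters' processing notes the tool was kallisto (version not given). The deposited table holds TPM per gene symbol for 6 libraries, made by the authors. Genome build, annotation and any gene filter were not given in the sources used here. All 11351 genes are above 0 in every library, and they hold only part of each library's TPM total.

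From the deposited TPM, log2(TPM + 1) was computed here and tested in limma 3.58.1 (R 4.3.3) with a mean-variance trend over 9137 genes averaging 1 TPM or more, with 2 groups and Benjamini-Hochberg adjusted p under 0.05. Fold changes on this scale understate those of low genes. Ratios between members used exact permutation tests. Gene order and promoters came from RefSeq. The members and lists were chosen with earlier results of these data known. Genes named are the members, listed neighbours, up to 4 called genes per list with the smallest adjusted p (or the 2 highest in level), a few by name and the 5 most alike; others are said to be named after their values were seen. Some genes that this rule names are not reported here. TPM keeps no read counts, so no counting interval is given.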

Additional observations from a re-analysis of the deposited data

How the results depend on the processing

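DDX1 kept its direction under every alternative run. Its log2 fold change ran from -0.32 to -0.26 without 1 library and was -0.48 with median-ratio scaling. It was -0.11 with quantile normalization (adjusted p = 0.442), which gives the top-ranked gene of each library the same value. DDX1 ranked 1 in every library but sAKZ692 replicate 3, so that setting says little of its direction. Its call was also lost without the filter (-0.30, adjusted p = 0.0953). Deviations of same-numbered libraries from their group means correlated little across genes (r = 0.061, -0.025 and 0.042). With 3 libraries per group this cannot show whether the numbers pair them. With the replicate block DDX1 was at -0.30 (adjusted p = 0.059) and 2499 genes passed, against 2981 without the block. MYCN, never past the threshold, turned to -0.14 after median-ratio scaling and -0.0090 with array weights, and ran from -0.0099 to 0.071 without 1 library. NBAS turned to -0.034 after median-ratio scaling and ran from 0.058 to 0.20 without 1 library. The log2 ratio differences ran, without 1 library, from 0.25 to 0.39 for MYCN to DDX1, from -0.14 to -0.068 for MYCN to NBAS and from -0.52 to -0.32 for DDX1 to NBAS. The number of genes past the threshold ran from 1625 (without DMSO replicate 2) to 4453 (without sAKZ692 replicate 3), and was 4591 with array weights, an alternative chosen after seeing the data, which gave that replicate a weight of 0.156. Over the pathway and neighbour lists 44 genes passed, 74 with array weights, and 19 to 77 without 1 library. Fewer libraries also leave fewer degrees of freedom. Of 47 named genes past the threshold other than DDX1, 27 stayed past it under every setting that kept all libraries and 19 without any 1 library.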

Other observations

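MEIS1, a homeobox gene amplified in IMR32 cells in a separate stretch of chromosome 2, was at 456, 421 and 391 TPM with DMSO and at 396, 396 and 443 TPM with sAKZ692. The groups overlapped (log2 fold change -0.038, limma adjusted p = 0.75). Its level with DMSO was 8.92 times that of SPRED2 and 11.5 times that of ETAA1, the listed genes on either side. Of its 20 nearest protein-coding genes in RefSeq order, 16 were tested. Of these 3 rose, 2 fell and 11 did not pass, a share near the 32.6% of all tested genes past the threshold, and the median log2 fold change was 0.055. These neighbours were named after their values were seen. SLC1A4, a neutral amino acid transporter gene, rose from 17.2 ± 0.773 to 46.1 ± 11.0 TPM (SD, n = 3; limma adjusted p = 0.0017), and LGALSL, a galectin-like gene, from 26.6 ± 1.06 to 41.6 ± 1.09 TPM (0.00143). PNO1, a ribosome assembly factor, fell from 59.2 ± 1.23 to 45.5 ± 1.70 TPM (0.00635). PELI1 (log2 fold change 0.40) and PROKR1 (-0.95) were near the threshold, both at an adjusted p of 0.0481, and lost their calls under several alternatives.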
